A study of Arabidopsis thaliana with 4 samples.

Results

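This section describes 1 array, on which RNA of fas2-2 plants was set against RNA of wild-type plants. It was chosen by its label and not by any measured value. It is 1 of 4 arrays in the series, and 9335 of its 22575 features carried a single gene name, which gave 9253 genes after probes of a gene were averaged.

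The plants were Arabidopsis thaliana of the ecotype Nossen, 4 weeks old and grown on solidified MS medium. The fas2-2 plants carried a mutation in the p60 subunit of chromatin assembly factor 1 (CAF-1), and the wild-type plants were unmutated Nossen. The other arrays compared fas1-2 plants, mutated in the p150 subunit, and wild-type plants given 100 Gy of gamma-rays at 300 Gy/h and sampled 6 h or 12 h later, with unirradiated wild type. The red dye (Cy5) marked the mutant or irradiated RNA and the green dye (Cy3) the wild-type RNA on every array, with no dye swap, so dye effects on single genes cannot be told apart from the genotype. The labels name rosette leaves, whereas the design text names seedlings without roots. They do not say how many plants were pooled, or whether arrays shared a wild-type RNA.

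CAF-1 is a histone chaperone of 3 subunits that follows the replication fork and assembles new nucleosomes from H3 and H4. In Arabidopsis its large and middle subunits are encoded by FAS1 and FAS2, and loss of either is known for fasciated stems, disturbed shoot and root meristems and less stable silencing. FAS1 and FAS2 were not analysed here, so the genotype of neither mutant array was checked on the mutated gene.

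Values below are log2 ratios of mutant or irradiated over wild-type RNA, so 1 is 2-fold higher, -1 is 2-fold lower and 0 is equal. The sources used here give neither log base nor sign, and both were read as the scanner software writes them, log10 of red over green. Every condition had 1 array. No difference from wild type therefore has a replicate check, no p-value is given, and precision is limited by there being 1 array. The error that can be measured is that between repeated spots on the fas2-2 array. For 48 transcripts spotted more than once (99 spots), its pooled SD was 0.28 and its median SD 0.13. The largest SD of a transcript was 0.99. The genes at the far ends of the range, named below, each had 1 probe, so the error between spots was not measured for them. That error does not cover differences between plants, RNA preparations or dyes. A transcript level in bulk tissue does not separate fewer cells of a type from less RNA per cell.

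Of the 9335 probes 293 (3.14%) lay 2-fold or more from wild type in fas2-2, with 166 above (1.78%) and 127 below (1.36%). As genes these were 164 higher (1.77%) and 124 lower (1.34%), together 288 or 3.11% of 9253. The share was 2.86% in fas1-2, 2.89% at 6 h and 1.65% at 12 h. The middle 50% of genes in fas2-2 lay between -0.15 and 0.15, the median was -0.01, and 48.2% of genes lay above 0. At 4-fold 19 genes were higher and 16 lower, and at 8-fold 4 were higher and 3 lower. The genes nearest to the 2-fold limit stood at 1.0032 inside and 0.9999 outside it on the high side, and at -1.0065 and -0.9999 on the low side.

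The far ends of the range held genes without a symbol. AT5G49500 was highest at 4.88, which is 29.5-fold, against 1.12 in fas1-2, 0.87 at 6 h and 1.06 at 12 h, so it lay above wild type on all 4 arrays. AT2G19610 stood at 4.42 (21.4-fold), with -0.08 in fas1-2, -0.17 at 6 h and -0.37 at 12 h. AT2G15220 stood at 4.02 (16.2-fold), with 0.60, 0.20 and -0.44 on the same arrays. For these 2 genes the fas2-2 array alone was more than 2-fold from wild type. AT1G44920 (3.24) and AT1G52100 (2.94) followed.

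At the low end AT5G42850 stood at -4.29, a 19.5-fold lower value, and it was also low in fas1-2 (-2.95) but not at 6 h (0.39) or 12 h (0.21). AT2G38950 stood at -4.05, against -0.15 in fas1-2, 0.06 at 6 h and -0.18 at 12 h. AT5G24760 stood at -3.72, against -0.25, -0.06 and 0.45. AT2G38950 and AT5G24760 were each within 1.5-fold of wild type on the other 3 arrays. AT5G41860 (-2.53), AT3G55600 (-2.27), AT2G14080 (-2.23), AT1G35710 (-2.20) and AT2G25450 (-2.09) were among the next lowest; AT2G14080 and AT2G25450 stood at 0.53 and 0.75 in fas1-2.

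**Figure D1:**
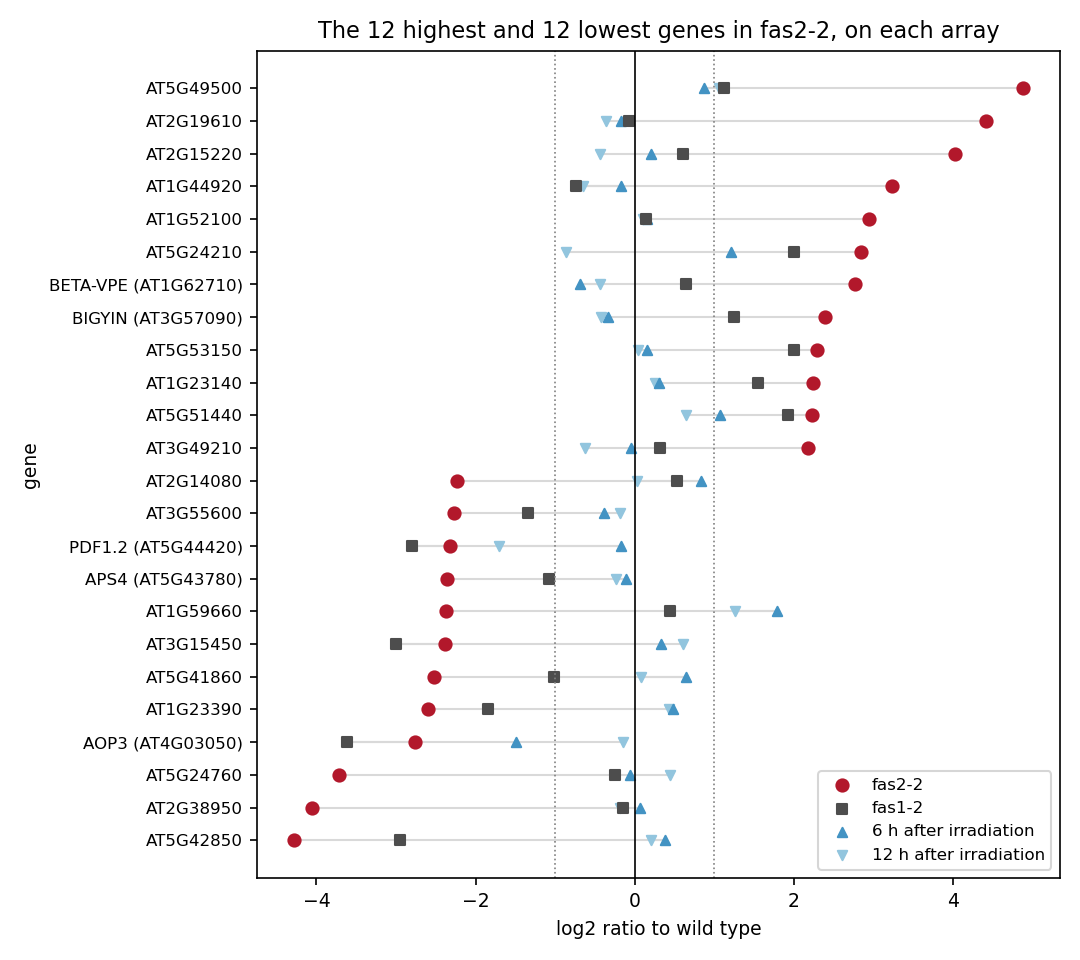
Log2 ratio to wild type (horizontal axis) of the 12 highest and 12 lowest genes of the fas2-2 array (rows), with 1 point per array: fas2-2, fas1-2, 6 h and 12 h after irradiation. Dotted lines mark 2-fold; AT5G49500 at 4.88 and AT5G42850 at -4.29 are the ends of the range in fas2-2, and for rows such as AT2G19610 and AT2G38950 the other 3 arrays lie near 0.

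Among the highest genes with a symbol, BETA-VPE (AT1G62710), a vacuolar cysteine protease known for maturing seed storage proteins, stood at 2.77 in fas2-2, 0.65 in fas1-2, -0.68 at 6 h and -0.44 at 12 h. The other vacuolar processing enzymes stayed near wild type in fas2-2, with ALPHA-VPE at 0.07, GAMMA-VPE at 0.03 and DELTA-VPE at -0.15. BIGYIN (AT3G57090, also FIS1A), which takes part in the fission of mitochondria and peroxisomes, stood at 2.39 in fas2-2, 1.246 in fas1-2, -0.33 at 6 h and -0.43 at 12 h. Its paralogue FIS1B was at -0.22 in fas2-2. Both genes were named because they were among the highest on the array, so lower values in their paralogues follow largely from that choice. The paralogues were added after their values were seen, and for BIGYIN only 1 was compared. Whether either gene stood apart from its family was therefore not tested.

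MSRB5 (AT4G04830), which reduces oxidised methionine in proteins, stood at 2.00 in fas2-2, 0.99 in fas1-2 and -0.68 at both 6 h and 12 h. MSRB6 (AT4G04840), the next gene on chromosome 4, stood at -1.20 in fas2-2 and -0.81 in fas1-2. The other 4 measured MSRB genes lay between 0.18 (MSRB8) and 0.55 (MSRB9) in fas2-2. Neighbouring genes of the same family thus lay on opposite sides of wild type.

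OCT1, a transporter of the organic cation and carnitine family, stood at 1.48 in fas2-2, 0.89 in fas1-2, 3.28 at 6 h and -1.26 at 12 h, while OCT4 stood at 0.9999, just short of 2-fold, and OCT5 at -0.06 in fas2-2. For AT2G05510 the mean of -1.35 rested on probes that disagreed, at -2.48 and -0.22, whereas 3 of the 4 probes of LpxC5 (-1.03) were beyond 2-fold.

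Smaller differences above 2-fold were seen for several metabolic and signalling genes. PDC3 (AT5G01330), a pyruvate decarboxylase of ethanolic fermentation, stood at 1.43 in fas2-2 and -1.17 in fas1-2, and PDC2 at 0.11 and -0.44. GH3.9, of the family that conjugates auxin to amino acids, stood at 1.34 in fas2-2 and 1.03 in fas1-2, while GH3.17, GH3.1 and GH3.3 lay between 0.05 and 0.22 in fas2-2. VTC4, a phosphatase of ascorbate synthesis, stood at 1.15 in fas2-2 and 1.11 in fas1-2. Both measured pirin genes were high in fas2-2: PRN (AT3G59220) at 1.04, with 0.37 in fas1-2, and AT2G43120, annotated as PRN2, at 1.03, with 0.02 in fas1-2. WRKY29, a transcription factor of the defence response, stood at 1.36 in fas2-2, and the other 9 WRKY genes lay between -0.62 (WRKY53) and 0.36 (WRKY68). Here and elsewhere, 2-fold genes set beside relatives were named for their values, so relatives nearer 0 follow largely from that choice. Whether any of them stood apart from its family was not tested.

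Of the 164 higher genes 51 lay within 1.5-fold of wild type on each of the other 3 arrays, 0.551% of all genes. Of the 124 lower genes 29 did so, 0.313% of all genes. The same count made for the other arrays gave 48 higher and 35 lower genes for fas1-2 (0.519% and 0.378%), 55 and 35 at 6 h (0.594% and 0.378%), and 19 and 14 at 12 h (0.205% and 0.151%). As a share of its 2-fold genes this was 27.8% in fas2-2, 31.3% in fas1-2, 33.7% at 6 h and 21.6% at 12 h. The fas2-2 share thus lay within the range of the other arrays. The count in fas2-2 was 51 rather than 80 genes when the arrays were scaled to an equal spread.

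The higher genes of this kind with a symbol included GSTU15 (AT1G59670), a glutathione transferase of the tau class, at 1.90 in fas2-2, 0.05 in fas1-2, -0.55 at 6 h and 0.11 at 12 h. AT2G41480, annotated as peroxidase 25, stood at 1.74 in fas2-2, 0.20 in fas1-2, -0.22 at 6 h and -0.13 at 12 h. The subtilase gene SBT3.12 stood at 1.39, the S-domain receptor kinase gene SD1-29 at 1.39, the splicing-associated MAC3A at 1.11 and the glutamate receptor-like channel gene GLR2.2 at 1.01, with the other 7 GLR genes between -0.21 (GLR3.5) and 0.66 (ATGLR1.2). For these 4 the other 3 arrays lay within 1.5-fold of wild type. After AT2G19610 and AT1G52100, the highest loci of this group without a symbol were AT5G37980 (1.92), AT5G65320 (1.71), AT5G26290 (1.68), AT1G65295 (1.65) and AT3G57720 (1.65).

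LHCB4.2 (AT3G08940) was the lowest symbol-bearing gene of this kind. It encodes a minor antenna protein of photosystem II and stood at -1.96 in fas2-2, against -0.03 in fas1-2, -0.13 at 6 h and -0.41 at 12 h. Its paralogues LHCB4.1 and LHCB4.3 stood at -0.14 and 0.39 in fas2-2. PSBW, a small subunit of photosystem II, was below wild type on all 4 arrays, at -0.90 in fas2-2, -0.81 in fas1-2, -1.06 at 6 h and -0.76 at 12 h. ACLA-2, a subunit of the ATP-citrate lyase that makes cytosolic acetyl-CoA, stood at -1.19 in fas2-2 and -0.31 in fas1-2, with ACLA-1 at -0.26 and ACLA-3 at -0.43 in fas2-2. NRPB8B, a subunit of RNA polymerase II, stood at -1.05 in fas2-2 and 0.01 in fas1-2. The other 8 measured subunit genes of RNA polymerases II, IV and V lay between -0.35 (NRPB12) and 0.26 (NRPB3).

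**Figure D2:**
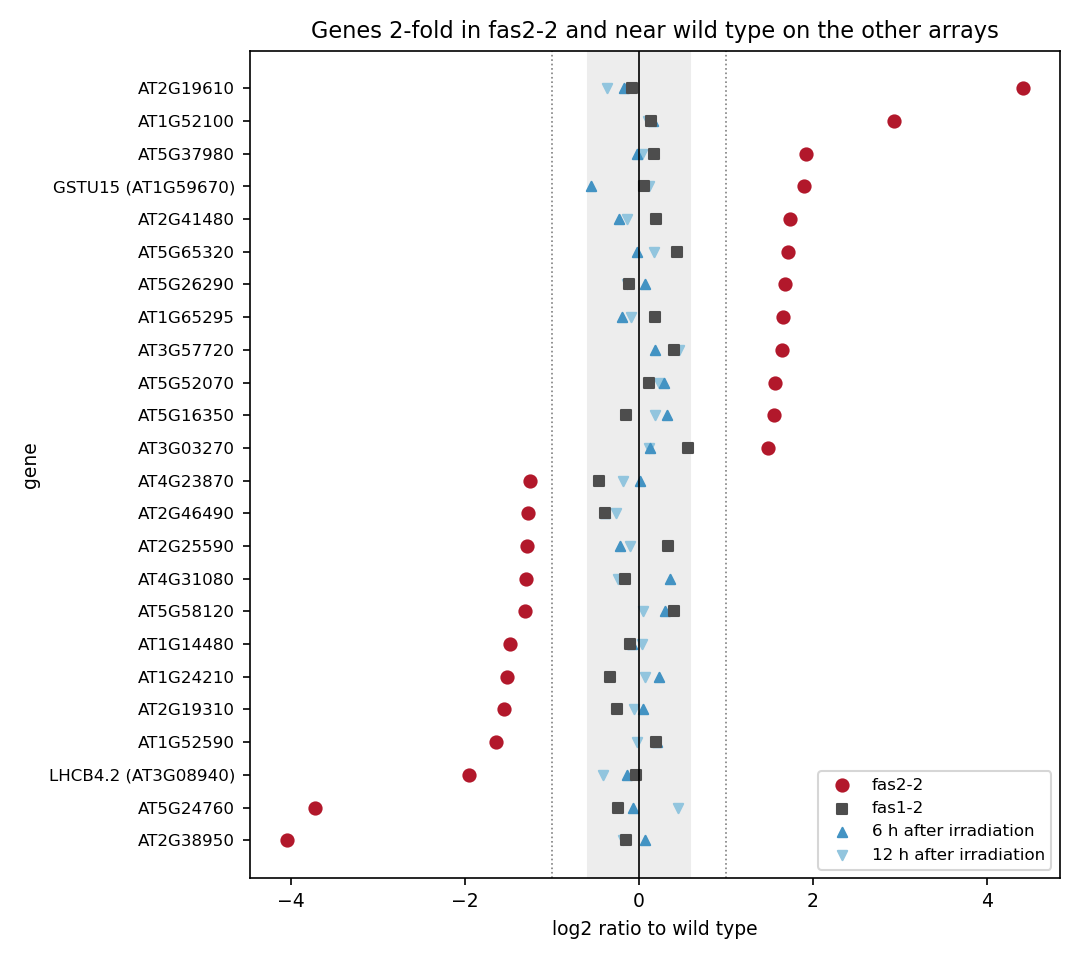
Log2 ratio to wild type (horizontal axis) of the 12 highest and 12 lowest genes that were at least 2-fold from wild type in fas2-2 and within 1.5-fold on the other 3 arrays (rows). Points are arrays, dotted lines mark 2-fold and the grey band marks 1.5-fold; the position of the grey-band points follows from how the genes were chosen.

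The genes closest to CAF-1 function are those of the histones it deposits and of the replication in which it acts. Of 38 listed core and linker histone loci 15 were measured in fas2-2, of which 12 lay above 0, as did 48.2% of all genes. Of the 15 loci 1 was 2-fold or more higher and 1 was 2-fold or more lower. With the arrays scaled to an equal spread neither reached 2-fold. Their median was 0.33 in fas2-2 and 0.20 in fas1-2, against -0.01 over all genes in fas2-2, where 1.77% of all genes were 2-fold higher and 1.34% lower. The replication-linked H3.1 genes disagreed, with AT5G65360 at 0.68 in fas2-2 and -0.37 in fas1-2, and AT5G10400 at -0.42 and 0.02. The H3.3 genes, whose protein is also placed outside replication, stood at 0.28 (AT5G10980) and 0.09 (AT4G40040) in fas2-2. The centromeric H3 gene HTR12 stood at 0.48 in fas2-2 and 0.20 in fas1-2.

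The H2B genes ranged in fas2-2 over HTB4 at 0.62, HTB1 at 0.40, HTB11 at 0.13 and HTB2 at -0.04. The linker histone gene HIS1-3 stood at 0.33 in fas2-2 and 0.02 in fas1-2. The widest values of the list were those of AT3G53730, at 1.03 in fas2-2 and 0.43 in fas1-2, and AT5G59690, at -1.06 and 0.60. These 2 listed loci have no name in the reference list. Histone genes are close to each other in sequence, so probes of different members may share signal.

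All 3 measured replication genes lay above wild type in fas2-2, as did 48.2% of all genes, and below 2-fold. PRL (AT4G02060), the replicative helicase subunit MCM7, stood at 0.58 in fas2-2 and 0.43 in fas1-2, against -0.49 at 6 h and -0.02 at 12 h. TOPII, the type II topoisomerase, stood at 0.54 and 0.02 in the mutants, and ICU2, the catalytic subunit of DNA polymerase alpha, at 0.29 and 0.25. Among the Aurora kinases of mitosis, AUR3 stood at 1.09 in fas2-2, 0.27 in fas1-2, -0.20 at 6 h and -0.07 at 12 h, whereas AUR1 was at 0.10 and AUR2 at -0.09 in fas2-2. KINESIN-12B, a motor of the cell plate, was at 0.30, ATSMC2, a condensin subunit, at 0.27 and SIM, an inhibitor of cyclin-dependent kinases, at -0.30 in fas2-2. The median of the 6 measured cell-cycle genes was 0.19 in fas2-2 and 0.01 in fas1-2, with 1 of them, AUR3, 2-fold higher, and 0 when the arrays were scaled to an equal spread.

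For repair, chaperones and silencing 1 gene each was measured. ATLIG4, which seals breaks in DNA end joining, stood at -0.28 in fas2-2 and -0.22 in fas1-2, against 0.48 at 6 h and 0.28 at 12 h. SGA2 (AT1G66740, also ASF1A), another H3-H4 chaperone, stood at -0.04 and -0.12 in the mutants. DME, a DNA demethylase, stood at 0.15 and 0.26. None of these 3 lists could be described beyond its single gene.

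**Figure D3:**
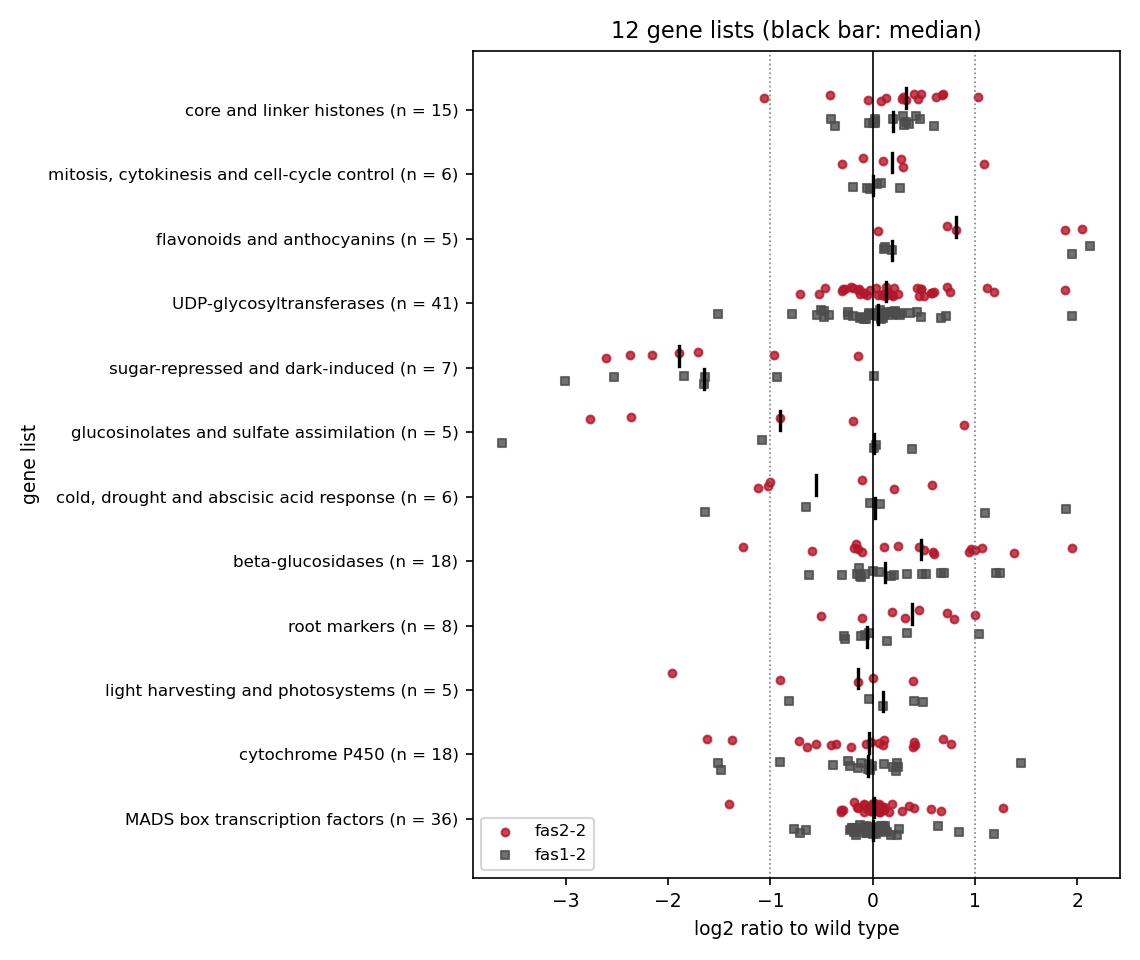
Log2 ratios to wild type (horizontal axis) of the measured members of 12 gene lists (rows, n is the number measured), with fas2-2 above fas1-2 in each row and a black bar at the median. Dotted lines mark 2-fold; 5 of 7 sugar-repressed and dark-induced loci lie below -1 in fas2-2, and the 18 beta-glucosidases have a median of 0.48.

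All 5 measured flavonoid and anthocyanin loci lay above 0 in fas2-2, as did 48.2% of all genes, with a median of 0.81, against 0.19 in fas1-2. The lowest, AT4G14090 at 0.05, was within the spread between repeated spots. DFR, which makes leucoanthocyanidins, was at 2.04 in fas2-2, 2.13 in fas1-2, -0.01 at 6 h and 0.77 at 12 h. UF3GT, which adds a sugar to anthocyanins, was at 1.88, 1.95, -0.61 and 0.11. These 2 members were at least 2-fold higher on both mutant arrays, as were 45 of the 9253 genes in all. On the fas2-2 array taken by itself 1.77% of all genes were 2-fold higher. The list was chosen with earlier results of these data known, so its count is not independent evidence of a direction. AT5MAT, which adds malonate to anthocyanins, stood at 0.81 in fas2-2 and 0.19 in fas1-2, and the flavonoid glucosyltransferase UGT78D2 at 0.73 and 0.11. UGT78D1, a flavonol rhamnosyltransferase of the same subfamily, stood at 1.12 in fas2-2 and -0.04 in fas1-2, and UGT78D3 at 0.16 and 0.19.

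Gene families were gathered by symbol and synonym and may lack members that carry other names. Like the lists, they were chosen with earlier results of these data known. Of 41 UDP-glycosyltransferases so found 26 lay above 0 in fas2-2 and 15 below, where 48.2% of all genes lay above 0. Their median was 0.13 in fas2-2 and 0.06 in fas1-2. At least 2-fold higher were 3, UF3GT, UGT78D1 and UGT76E2 (1.19 in fas2-2, 0.22 in fas1-2), and 0 were 2-fold lower, against 1.77% and 1.34% of all genes. UGT85A4 was lowest at -0.71. The family ranged from -0.71 to 1.88 in fas2-2 and from -1.51 to 1.95 in fas1-2. Its highest member on both arrays was UF3GT, already counted with the flavonoid loci.

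Loci listed as repressed by sugar and induced in the dark were low in fas2-2. All 7 measured loci of 26 lay below 0, where 48.2% of all genes lay above 0. Of the 7 loci 5 were at least 2-fold lower, where 1.34% of all genes were. The median was -1.90 in fas2-2 and -1.65 in fas1-2. The 5 were AT1G23390 (-2.60), AT3G15450 (-2.38), AT2G20670 (-2.16), AT3G15630 (-1.90) and AT5G19120 (-1.70), none of which has a name in the reference list. They were listed with their low values in these mutants already known, so their count is not independent evidence of a direction. AKINBETA1, a subunit of the energy-sensing SnRK1 kinase, stood at -0.97 in fas2-2 and -0.93 in fas1-2. MCCA, a subunit of the methylcrotonyl-CoA carboxylase of leucine breakdown, stood at -0.14 and 0.01. The same 7 loci had medians of 0.46 at 6 h and 0.57 at 12 h.

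Sugar export and auxin-related genes gave no common direction. Among 12 measured SWEET sugar transporter genes SAG29 (SWEET15), known from senescing leaves, stood at 1.10 in fas2-2, -0.39 in fas1-2, 0.28 at 6 h and -0.46 at 12 h. SWEET10 stood at -1.13, 0.21, -0.07 and 0.69 on the same arrays. SWEET11, a phloem-loading exporter, was at -0.84 and the vacuolar SWEET17 at -0.70 in fas2-2, with SWEET13 at 0.65. The median of the 12 was -0.05. Of 7 measured Aux/IAA genes, repressors of auxin response, 0 were 2-fold from wild type in fas2-2, and they ranged from -0.51 (IAA29) to 0.61 (IAA15).

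Of 5 measured genes of glucosinolate synthesis and sulfate assimilation 2 were at least 2-fold lower, where 1.34% of all genes were. This list was chosen with earlier results of these data known, so its count is not independent evidence of a direction. AOP3, a dioxygenase of glucosinolate side chains, stood at -2.76 in fas2-2, -3.62 in fas1-2, -1.49 at 6 h and -0.15 at 12 h. APS4, an ATP sulfurylase of the first step of sulfate assimilation, stood at -2.36, -1.08, -0.11 and -0.23. Its paralogue APS3 lay on the other side of wild type, at 0.89 in fas2-2 and 0.39 in fas1-2. BCAT4, the aminotransferase that starts methionine chain elongation, stood at -0.91 in fas2-2 and 0.04 in fas1-2, and UGT74B1 at -0.19 and 0.01.

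Defence and abiotic stress genes were sparse on the list of named probes. PDF1.2, a defensin induced by jasmonate and ethylene, stood at -2.33 in fas2-2, -2.79 in fas1-2, -0.17 at 6 h and -1.71 at 12 h. THI2.1, a thionin induced by jasmonate, stood at -0.01 in fas2-2 and 1.30 in fas1-2. The chitinase gene CHI stood at -0.01 in fas2-2 and -1.19 in fas1-2. Both of these were near wild type in fas2-2 and beyond 2-fold in fas1-2, a difference that could not be tested.

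Of 6 measured genes of cold, drought and abscisic acid response 3 were at least 2-fold lower in fas2-2, where 1.34% of all genes were, and the median was -0.55, against 0.02 in fas1-2. With the arrays scaled to an equal spread the count was 1, STZ. This list too was chosen with earlier results of these data known, so neither count is independent evidence of a direction. The 3 were STZ, a zinc finger repressor, at -1.12 in fas2-2 and -1.64 in fas1-2, KIN2 at -1.03 and 0.08, and the dehydrin gene COR47 at -1.01 and -0.65. The chloroplast cold proteins COR15A and COR15B stood at 0.58 and 0.21 in fas2-2, against 1.10 and 1.89 in fas1-2. KIN1, a close copy of KIN2, stood at -0.10 in fas2-2. Such close copies may share signal. Of the stress and folding list, AT5G51440 stood at 2.23 in fas2-2 and 1.93 in fas1-2, AT2G21640 at -0.32 and 0.93, and the endoplasmic reticulum chaperone gene BIP1 at 0.33 and 0.03.

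Beta-glucosidases, which release defence compounds and hormones from their sugar conjugates, numbered 18 among the measured genes. Of these 12 lay above 0 in fas2-2 and 6 below, where 48.2% of all genes lay above 0. At least 2-fold higher were 4 and lower 1, against 1.77% and 1.34% of all genes. The median was 0.48 in fas2-2, against 0.12 in fas1-2. BGLU46 stood at 1.95 in fas2-2 and 1.20 in fas1-2, BGLU27 at 1.38 and 0.07, BGLU33 at 1.07 and 1.24, and PYK10 (BGLU23), the main protein of endoplasmic reticulum bodies in roots, at 1.003 and 0.34. With the arrays scaled to an equal spread the 2-fold higher members were 2, BGLU46 and BGLU27. The family was chosen with earlier results of these data known, so these counts are not independent evidence of a direction. ATA27, known from anthers, was the lowest at -1.27 in fas2-2 and -0.62 in fas1-2. BGLU45, the tandem neighbour of BGLU46, stood at -0.59 in fas2-2. The 5 genes matched by name as jacalin lectins lay between 0.27 (JAL34) and 0.80 (JAL23) in fas2-2. Loci without a symbol were not matched, so this range may not cover all measured lectin genes.

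PYK10 also belongs to the root markers. Of 8 measured root marker loci 6 lay above 0 in fas2-2, as did 48.2% of all genes. PYK10 alone, at 1.003, reached 2-fold (0 with scaling), where 1.77% of all genes were 2-fold higher. The median of the 8 loci was 0.39, against -0.06 in fas1-2, and their range -0.50 to 1.003. Below 0 in fas2-2 were AT5G17820 at -0.50 and BGLU22 at -0.11. EXPA7, an expansin of root hair cells, stood at 0.73 in fas2-2 and -0.03 in fas1-2, and BGLU21 at 0.45 and -0.08. EXPA18, also of root hair cells, stood at 0.19 and 0.14. The part of these markers in the values of beta-glucosidases and lectins was not tested. Ratios do not give levels, so the labelled leaf tissue could not be checked; the leaf gene RCA, the activase of Rubisco, stood at -0.20 in fas2-2. The meristem gene CLV3 was at 0.02 and the trichome patterning gene TRY at -0.18. Of the flower and anther markers AMS and SHT stood at 0.00, AT5G07230 at 0.03 and ATA27, named above, at -1.27 in fas2-2.

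Several further families held 1 or 2 extreme members in fas2-2 around a median near 0. Of 36 MADS box genes AGL19, a promoter of flowering, stood at 1.28 in fas2-2 and 0.84 in fas1-2, and AGL42, another of the family, at -1.40 and -0.71; the family's median was 0.02 in fas2-2. Of 18 cytochrome P450 genes CYP71B22 stood at -1.62 in fas2-2 and -1.51 in fas1-2, and CYP71B26 at -1.38 and -0.03; the median was -0.04. Of 12 glutathione transferases GSTU15 alone was 2-fold from wild type, with a median of -0.02. The 26 expansin, xyloglucan and pectin genes held 0 at 2-fold in fas2-2 and had a median of 0.15. That list is incomplete: the pectin methylesterase gene ATPMEPCRD, at -1.19 in fas2-2 and -0.55 in fas1-2, was not matched to it. XTH33, a xyloglucan enzyme of the cell wall that was not matched to it either, stood at -1.94 in fas2-2 and -1.49 in fas1-2, whereas the other 8 measured XTH genes lay between -0.34 (XTH32) and 0.45 (XTH20) in fas2-2. The 14 tubulin and kinesin genes ranged from -0.43 to 0.30, with 0 at 2-fold, and the 10 U-box genes from -0.59 (PUB39) to 0.56 (PUB43). UPB1, a transcription factor that represses peroxidase genes in roots, stood at -1.71 in fas2-2 and -1.18 in fas1-2.

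The 2-fold genes of fas2-2 lay on all 5 chromosomes. Their share of the measured genes was 3.46% on chromosome 1, 3.23% on chromosome 2, 2.23% on chromosome 3, 3.04% on chromosome 4 and 3.45% on chromosome 5. Among 9230 pairs of neighbouring measured genes 18 had both members at least 2-fold from wild type, 10 in the same direction and 8 in opposite directions. In 11 of the 18 no other protein-coding gene lies between them in the reference list. The most 2-fold genes among 25 measured genes in a row was 5, found on chromosomes 1 and 4. Of all genes 3.11% were at least 2-fold from wild type in fas2-2. The counts of pairs and of genes in a row were not tested against that share, and neither was made on the other arrays.

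The widest opposite pair was AT1G59660 and GSTU15 on chromosome 1. AT1G59660 stood at -2.37 in fas2-2, 0.44 in fas1-2, 1.79 at 6 h and 1.26 at 12 h, so it was low in this mutant and high after irradiation. AT5G62080 was the other gene 2-fold lower in fas2-2 (-1.08) and 2-fold higher at 6 h (1.77) and 12 h (2.20). The neighbour of AT1G59660, GSTU15, stood at 1.90 in fas2-2. AT5G26280 (-1.29) and AT5G26290 (1.68), MSRB6 and MSRB5, and AT1G30540 (-1.13) and UGT78D1 (1.12) were also adjacent and opposite. Adjacent pairs high together were AT1G54010 (1.32) and AT1G54020 (1.75), AT1G04420 (1.26) and AT1G04430 (1.252), and AT5G18840 (1.17) and AT5G18850 (1.68). So were AT1G19530 (1.15) and AT1G19540 (1.06), AT1G59960 (1.07) and AT1G59970 (1.16), and AT3G26450 (1.15) and AT3G26460 (1.11). AT5G21940 (-1.62) and AT5G21950 (-1.06) were adjacent and low together. Both directions thus occurred among adjacent genes.

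**Figure D4:**
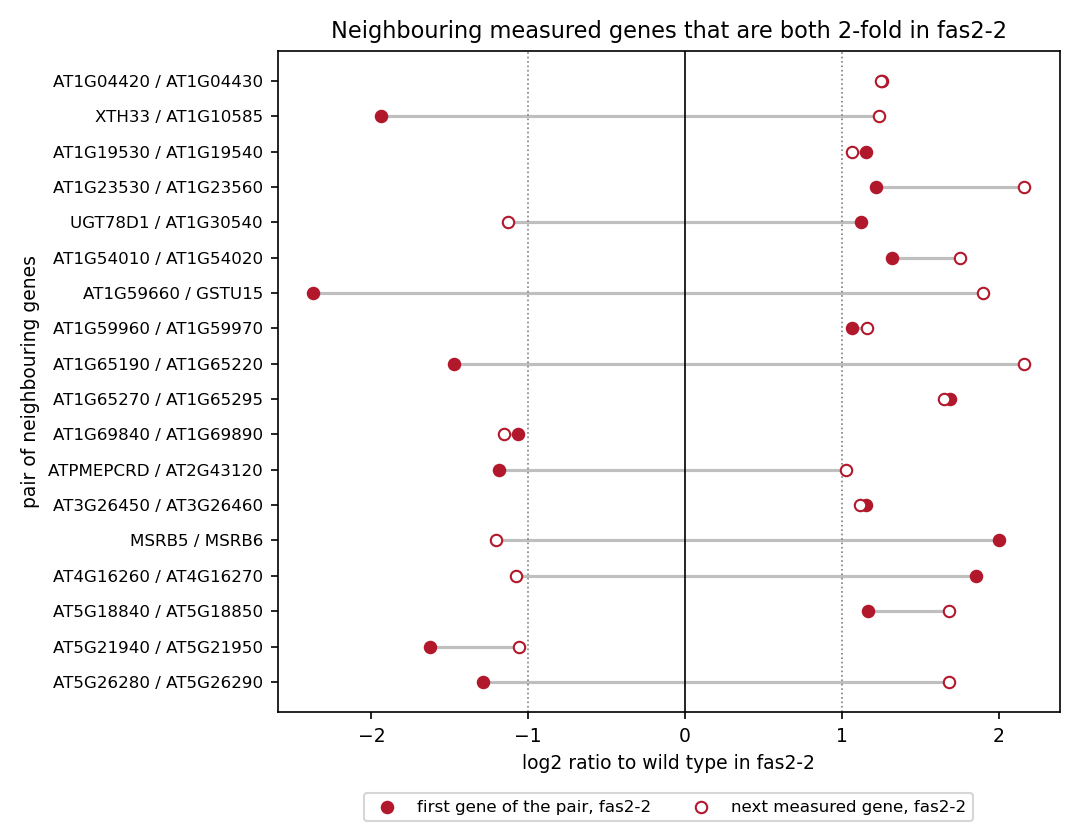
Log2 ratio to wild type in fas2-2 (horizontal axis) of the 18 pairs of neighbouring measured genes in which both were at least 2-fold from wild type (rows). Filled points are the first gene of a pair along the chromosome and open points the next; 10 pairs lie on the same side of 0 and 8 span it, the widest being AT1G59660 and GSTU15.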

How the data were processed

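Dye-labelled RNA was hybridised to Agilent Arabidopsis 2 arrays, 1 per condition, per the labels. The values the authors deposited, 1 for each feature of an array, were read as log10 ratios. Agilent Feature Extraction was used, per the submitters' processing notes; its version, the background correction and the dye normalization are not given in the sources used here. The deposited log10 values of the fas2-2 array ran from -1.69 to 1.55, with a median of -0.00135 and 237 exact zeros, which were kept. Spot intensities were not used here, so signal over background and saturation could not be judged.

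The log10 ratios times 3.32 gave log2 ratios, with no further normalization (Python 3.11.15, pandas 2.3.3). Of 22575 features, 9335 had 1 gene name in the array annotation, 40 several and 13200 none. Through gene identifiers 9317 were matched to the TAIR10.1 reference list, used for symbols and gene order, and 18 kept the array's name. Probes were averaged per gene (79 genes with several). The array's genome build is not given in the sources used here, so positions are given only as gene order, and no sequences were used. The counting was tested on simulated data.

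Of 292 loci in 13 functional lists 56 were measured, and of 69 in 8 marker lists 15. Families were matched on symbols and synonyms. The seed storage, xylem, and guard cell and phloem markers had no measured member. Family matching was incomplete: several families, peroxidases among them, matched no gene by name although members may be measured, and they are not described. Members and lists were chosen with earlier results of these data known, so their counts beside the share of all genes are not independent evidence. Genes named were the 25 highest and lowest, the 12 highest and lowest near wild type elsewhere, genes opposite on other arrays, and list members at 2-fold or else the 2 largest. Paralogues, neighbours and further list members were added after their values were seen. Alternatives were centring, scaling, all features, genes for probes, zeros left out, values read as log2, and other limits on the other arrays.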

Additional observations from a re-analysis of the deposited data

Results flagged for a closer look

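AT3G57470 and PDC3 were at least 2-fold from wild type in opposite directions in the mutants. AT3G57470 stood at -1.56 in fas2-2 and 1.37 in fas1-2, and at -0.67 at 6 h and -1.11 at 12 h. PDC3 stood at 1.43 in fas2-2 and -1.17 in fas1-2. These differences were not tested, since each mutant had 1 array.

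Features without a gene name were outside the comparisons. Of 13200, 482 lay 2-fold or more to the same side on all 4 arrays, 475 of them low. Among the other 12718, 73 were high and 44 low by 2-fold or more in fas2-2 while within 1.5-fold of wild type on the other 3 arrays. By the same limits 51 high and 29 low genes were found among the 9253 named genes (0.551% and 0.313%). The unnamed features therefore did not stand out by this count. Feature 506 stood at 5.15 in fas2-2, above every named gene, against -0.19 in fas1-2, 0.00 at 6 h and 0.12 at 12 h. Feature 13634 was the lowest of the 44 low features at -2.71.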

How the results depend on the processing

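No paired analysis was possible because each condition had 1 array and the labels give no replicate numbers, and no array could be left out. Centring, scaling, counting genes for probes and leaving out zeros each kept the 2-fold count of fas2-2 within 1.5 times of 293. With all features it was 1237 (453 higher, 784 lower), including unnamed features low on every array. With the deposited values read as log2 it was 6 (3 higher, 3 lower), so the counts rest on the log base. The 80 genes near wild type elsewhere became 51 with scaling (33 higher, 18 lower), 35 where values elsewhere had to lie at most 25% above or 20% below wild type (19 higher, 16 lower) and 159 within 2-fold elsewhere (96 higher, 63 lower). No list median moved by more than the pooled SD between repeated spots (0.28) under centring or scaling. The sugar-repressed median went from -1.90 to -1.72 with scaling, a larger move than the median SD of 0.13. The flower and anther median of 4 genes, near 0, changed sign with centring. Scaling multiplied each array by a positive factor (0.91 for fas2-2), so it could not change the sign of a gene. Centring moved the gene median of fas2-2 only from -0.008 to -0.004. No gene named by the rule in the processing section changed sign with it, which is a weak check for so small a shift. The paralogues and list members added later were not recomputed. Signal over background could not be judged.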
